A study of Temora longicornis with 12 samples.

Results

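The genes described here are those of 30 assembly components of the marine copepod Temora longicornis, a small planktonic crustacean, chosen because they hold the largest numbers of related genes. A component was read from each identifier by removing "_g" and what follows, and a Trinity gene by removing the transcript number. Only genes with a single row in the table and a mean of at least 1 CPM (counts scaled to the library total, here a total without the most abundant row) over the 12 libraries were counted, and the 30 components with most such genes were taken. They held 259 member genes, of 19331 such genes in 12767 components and of 35381 Trinity genes in all. One component had 13 members, 3 had 10, 8 had 9 and 18 had 8. A further 7 components also had 8 and were left out by the order of their identifiers.

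Trinity is a program that builds transcripts from short reads without a genome. Reads whose sequences overlap are gathered into a cluster, the cluster is drawn as one or more graphs of shared sequence, and each graph is a component. Genes of one component can be copies of a gene family, alleles of one gene in different animals, pieces of one transcript that failed to join, or unrelated genes that share a repeat or a domain. The identifiers come with no gene name, function or sequence in the files used here, so members are described by identifier, no role is given to any of them, and the labelled whole-body source was not checked against marker genes. The 30 components came from 30 different read clusters.

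RNA came from whole adult animals kept in dark, aerated vessels for 5 days (120 h) in all. The control group stayed at 14 °C. The sustained group was warmed to 17 °C in the first 24 h and held at that temperature to the end. The acute group had 4 days at 14 °C followed by 24 h at 17 °C, and the recovery group was moved from 17 °C back to 14 °C for the last 24 h. Sequencing covered 3 of the 4 vessels of a group, so n is 3 libraries per group and the tests measure the spread between vessels. The labels name no strain, sex or number of animals per vessel. In whole animals, fewer cells of a type and less RNA per cell cannot be told apart.

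Library totals ran from 11582848 counts in control replicate 2 to 32504862, and a single row took between 0.00387% and 53.1% of them. The members together took 0.516% to 0.810% of the remaining counts, with the highest share in control replicate 2 and the lowest in sustained replicate 2. All 259 members passed the low-count filter. Their mean level on the selection scale ran from 1.00 to 384 CPM with a median of 5.57, against 5.93 over all genes meeting the same conditions. The lowest member stood at 1.00 CPM and the next gene of these components below the limit at 0.885, and 31 members lay between 1 and 1.5 CPM. Further genes of the same components were no members: 12 had several rows and 13 were below the limit. Levels given below are CPM after TMM scaling (trimmed mean of M-values), are not corrected for length, and so are compared only within a gene or a summed component. Reads that match several near-identical genes may have been split between them or dropped in the counting, so the value of any single member is uncertain.

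Control replicate 2 differed most from the rest. In it, 23 of the 259 members (8.88%) lay at least 4-fold below the median of the other libraries, against 4.29% of all single-row genes of at least 1 CPM, and in every other library 0 to 6 members did. These 23 members belonged to 13 of the 30 components. At 2-fold, 36 members (13.9%, against 10.5% of all such genes) were low and 29 (11.2%, against 5.37%) were high in that library. It was also the library with the highest level for 83 members (32.05%, against 19.3% of all such genes) and the lowest for 44 (17.0%, against 20.0%). In 12 of the 30 components, some members were at least 2-fold below and others at least 2-fold above in this 1 library, a split found in 0 to 3 components in each of the others. More members lay 2-fold away in each direction here than in any other library, which alone raises the number of such splits. The share among other components or unrelated genes is not given, so the 12 are a description. The component sums moved less. None of the 30 sums was 2-fold away in control replicate 2, and single sums lay from -0.66 to 0.73 (log2) away. The median distance from the other libraries was 0.15 for sums and 0.59 for members (log2). No sums of unrelated genes were set beside these values. Whether the animals, the RNA or the library of this vessel differed was not tested.

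**Figure D1:**
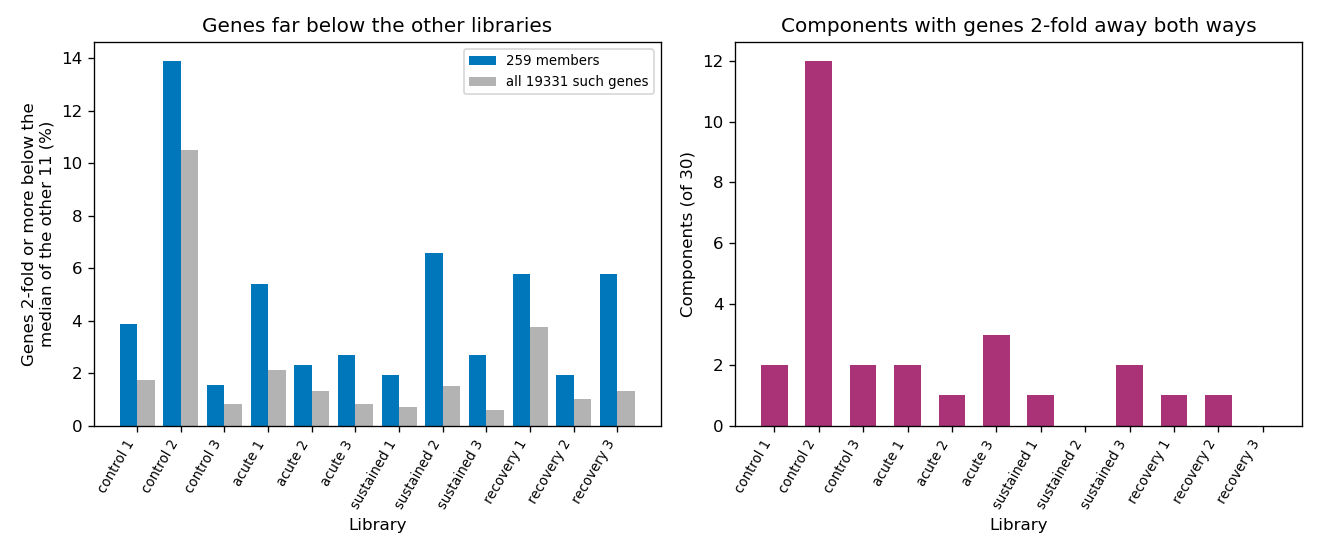
Left, the share of genes at least 2-fold below the median of the other 11 libraries, in percent, for the 259 members and for all 19331 genes of the same kind; right, the number of the 30 components with members at least 2-fold away in both directions, by library. Control replicate 2 is at 13.9% of members on the left and at 12 components on the right.

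The clearest case was component TRINITY_DN169881_c0, with 8 members. Gene TRINITY_DN169881_c0_g8_i1 had 20.8, 0 and 22.7 CPM in the control libraries, 22.4, 25.4 and 26.9 in the acute, 23.0, 18.3 and 24.7 in the sustained and 23.9, 17.6 and 22.7 in the recovery libraries. It was thus listed at 0 in control replicate 2 and within a narrow range elsewhere, with 411 to 735 counts in each of the other libraries. Against a floor of 3 counts, its level in control replicate 2 was at least 93.5-fold lower than the median of the others. Members g7, g6 and g4 were also at 0 there and above 0 in the other 11 libraries, at least 27.5-fold, 13.04-fold and 9.51-fold lower than their medians. Member g1 of the same component went the other way, with 24.4 CPM in control replicate 2 and 6.63 to 14.9 in the others. The sum of the component was lowest in control replicate 2, at 39.9 CPM against 52.2 to 68.8 in the others. In all, 13 members in 7 components had no count in that library (5.02%, against 1.68% of all such genes), and 12 of them were above 0 in each of the others.

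Component TRINITY_DN171830_c5, also with 8 members, had the same split at higher counts. Member g4 had 511 CPM in control replicate 2 and 160 to 250 in the other libraries, and members g14 and g23 were highest there as well, at 175 and 153 CPM. Member g24 had 32.9 CPM in that library and 130 to 294 in the others, and member g2 had 11.8 against 68.7 to 196. The sum of the component, 1084 CPM in control replicate 2, lay within the range of the others, 709 to 1138 CPM. Members g4, g23 and g5 did not overlap between sustained and control libraries, and were lower in the sustained ones. One member also stood alone in another library: g14 had 1.40 CPM in recovery replicate 3 and at least 55.3 in the other 11.

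**Figure D2:**
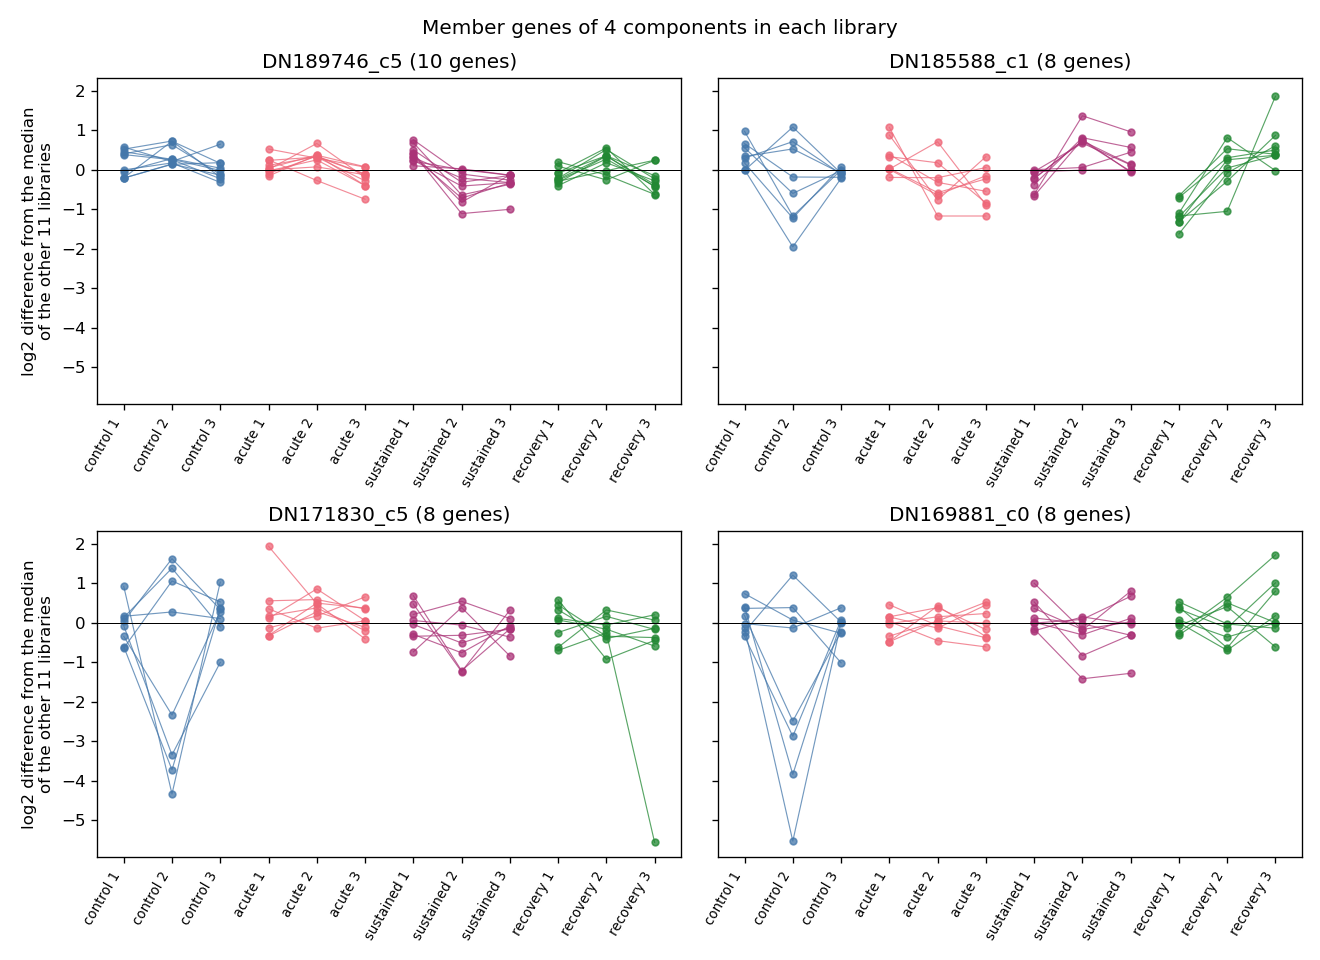
Each line is one member gene, plotted as its log2 difference from the median of the other 11 libraries, for 4 components (names without the prefix TRINITY_); lines join the 3 libraries of a group, whose order has no meaning. Members of DN189746_c5 mostly lie together in a library, and members of DN171830_c5 and DN169881_c0 part in control replicate 2. Members of DN185588_c1 share a low recovery replicate 1. In control replicate 2 they part too, with 3 of 8 at least 2-fold low and 1 at least 2-fold high.

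Over all 12 libraries, members of one component tended to be high and low in the same libraries, weakly and unevenly. The Pearson correlation of log2 CPM (pseudocount 0.5) had a median of 0.24 over the 1005 pairs of members within a component, with quartiles of -0.085 and 0.52. The median over the 32406 pairs of members of different components was 0.033. Of the pairs within components, 10.7% had a correlation above 0.7, 30.5% were below 0 and 5.07% below -0.5. All pairs share the same 12 libraries, and genes of a component may share reads, so these values are a description. Genes of the same kind in the remaining components with at least 2 of them had a median of 0.29 over 10854 pairs. Of those pairs, 13.3% were above 0.7 and 3.95% below -0.5. Of the pairs of members of different components, 3.54% were above 0.7 and 9.16% below -0.5. For members of one component the median was 0.24 on deviations from the group means, and 0.26 without control replicate 2, where 2.49% of pairs were below -0.5. In the remaining components it was 0.31 on deviations and 0.38 without control replicate 2.

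The component medians were above 0 in 26 of 30 components. The highest was in TRINITY_DN185588_c1 (0.557, and 0.664 without control replicate 2), followed by TRINITY_DN189746_c5 (0.551 and 0.536) and TRINITY_DN190685_c1 (0.492 and 0.266). In TRINITY_DN189746_c5, with 10 members, none of the 45 pairs was negative over the 12 libraries. Its members g30 and g9 had the highest correlation of the component, 0.915. For g30 the control libraries had 9.61, 11.8 and 9.92 CPM, the acute 9.96, 12.6 and 7.41, the sustained 15.8, 6.21 and 7.58, and the recovery 8.33, 12.5 and 7.24. Member g9 had 5.54, 6.48 and 6.69 CPM in the control libraries, 6.98, 7.43 and 5.26 in the acute, 8.50, 5.12 and 5.83 in the sustained, and 5.33, 7.15 and 4.75 in the recovery. Both genes were highest in sustained replicate 1, so the shared movement ran between vessels of a group and the groups overlapped.

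In TRINITY_DN185588_c1, members g20 and g3 had a correlation of 0.953, and in TRINITY_DN188214_c1 the median was 0.440. Members of both components parted in control replicate 2. There 3 members of the first were at least 2-fold low and 1 was at least 2-fold high. In the second, 2 were low and 2 high by that limit. These 2 components, picked after their values were seen, shared a low library. The members of TRINITY_DN185588_c1 summed to 90.6, 80.0 and 75.7 CPM in the control libraries, 90.6, 59.6 and 60.2 in the acute, 66.9, 128 and 83.5 in the sustained, and 28.3, 82.9 and 112 in the recovery. Those of TRINITY_DN188214_c1 summed to 23.1, 18.7 and 20.3, to 21.5, 13.7 and 16.3, to 17.3, 30.2 and 23.7, and to 5.72, 19.4 and 28.9 CPM in the same order of groups. Both were lowest in recovery replicate 1 and highest in sustained replicate 2, with recovery replicate 3 next. Of the 30 sums, these were the only 2 that lay 2-fold away from the other libraries in recovery replicate 1, and no sum did so in any of the other 11 libraries.

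**Figure D3:**
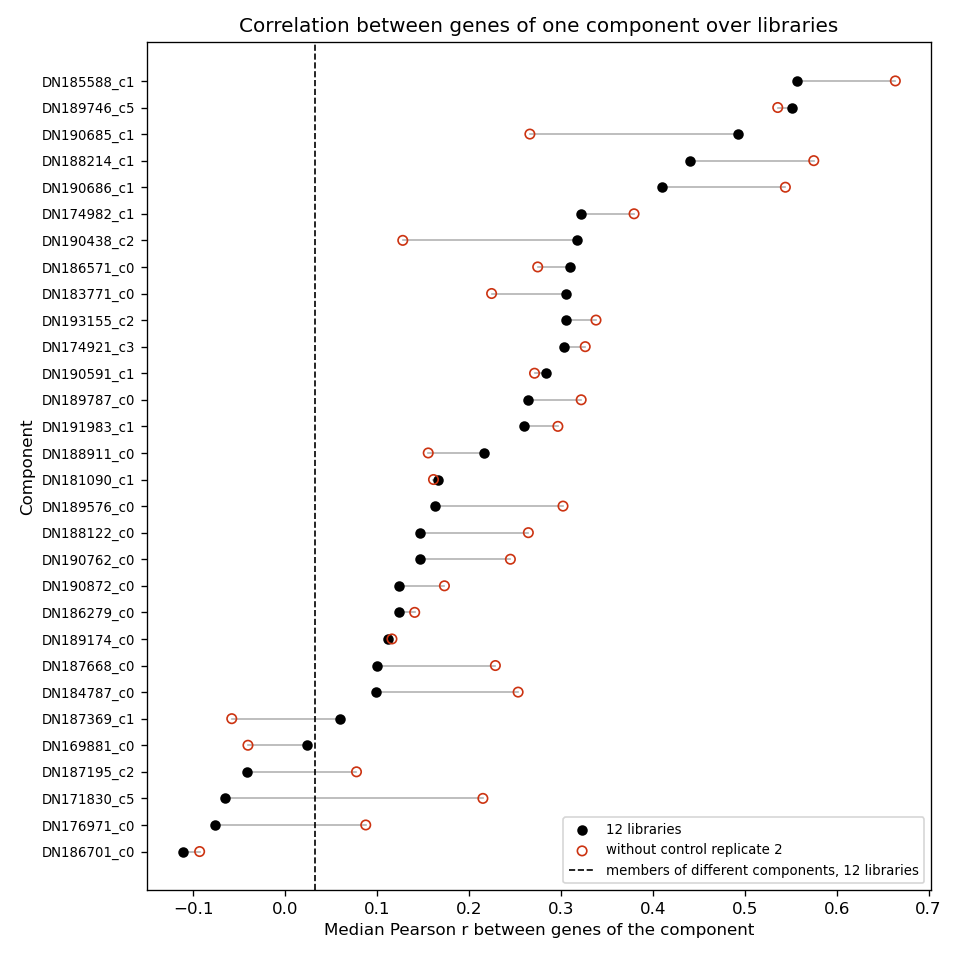
Median Pearson correlation between members of each of the 30 components (names without the prefix TRINITY_) over 12 libraries (filled) and without control replicate 2 (open); the dashed line is the median over members of different components, 0.033. Medians run from -0.111 to 0.557 over the 12 libraries, and TRINITY_DN171830_c5 goes from -0.066 to 0.215 without that library.

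At the other end, 4 components had a median below 0, and the lowest 3 were TRINITY_DN171830_c5 (-0.066, and 0.215 without control replicate 2), TRINITY_DN176971_c0 (-0.076 and 0.088) and TRINITY_DN186701_c0 (-0.111 and -0.093). In the first of these, members g24 and g4 had a correlation of -0.827 over 12 libraries and -0.116 without control replicate 2. In TRINITY_DN176971_c0, with 10 members, g20 and g5 were the members at 0 in control replicate 2, and their correlation of 0.933 was 0.629 without it. In the lowest of these 3 components the most opposed pair was little changed without that library: members g22 and g6 of TRINITY_DN186701_c0 had -0.717 and -0.661. Member g22 had 0.159, 0.0810 and 1.48 CPM in the control libraries, 3.43, 0.638 and 0.0438 in the acute, 8.59, 1.30 and 3.72 in the sustained, and 1.33, 3.04 and 4.79 in the recovery. Member g6 had 5.26, 9.32 and 5.56 CPM in the control, 0.343, 2.55 and 7.85 in the acute, 0.375, 0.545 and 1.84 in the sustained, and 9.17, 1.58 and 2.56 in the recovery. In the sustained libraries g6 was below every control library, whereas g22 overlapped the controls through 1 library (1.30 against 1.48 CPM).

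No member was called different between any of the 6 pairs of groups. With edgeR's quasi-likelihood test and Benjamini-Hochberg adjustment over 40943 rows, 0 of 259 members had an adjusted p under 0.05 in any pair (percent called over all rows, 0), and the lowest adjusted p was 0.938. DESeq2 also called 0 in each pair. At an unadjusted p under 0.05, edgeR counted 12 members between acute and control (3.9% of all rows), 14 between sustained and control (4.45%), 8 between recovery and control (3.18%), 7 between recovery and sustained (2.14%), 12 between sustained and acute (4.99%) and 1 between recovery and acute (3.91%). These counts are of 259 members, whereas the rows behind the percentages include genes with several rows and genes below 1 CPM. DESeq2 counted 10, 16, 10, 9, 13 and 2 members in the same order. When 1 library was left out, these counts by edgeR ran from 3 (without acute replicate 1) to 22 (without acute replicate 3) between acute and control, from 5 (without control replicate 2) to 25 (without control replicate 1) between sustained and control, and from 1 to 15 (without acute replicate 3) between recovery and acute. They ran from 5 to 18 between recovery and control, from 3 to 12 between recovery and sustained, and from 5 to 20 between sustained and acute. For any difference among the 4 groups, 0 members were called by either tool, and 4 by edgeR and 9 by DESeq2 had an unadjusted p under 0.05 (2 to 14 by edgeR when 1 library was left out). The interaction of first-phase and last-day temperature gave 0 calls and 8 members at an unadjusted p under 0.05 by edgeR. The 95% intervals lay within 4-fold either way for 79.9% to 83.8% of members across the pairs and within 2-fold for 30.9% to 35.5%, so a 2-fold difference was not excluded for most single members.

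Summing the members of a component gave steadier values but no call. In all 30 components the log2 sum varied less over the libraries than the median member did, with a median SD of 0.20 against 0.40, though the leading member alone gave 21.9% to 78.3% of a sum. No sums of unrelated genes were set beside these, so the smaller SD is a description and not a trait of related genes. By edgeR, 0 of the 30 sums were called in any pair, among 12765 sums tested. Between acute and control 2 sums had an unadjusted p under 0.05 (3.79% of all sums), between sustained and control 1 (4.29%), between sustained and acute 3 (5.44%), and in the others 0, that is between recovery and control (2.84%), recovery and sustained (1.97%) and recovery and acute (3.85%). DESeq2 called 0 sums, with 2, 1 and 2 at an unadjusted p under 0.05 in those pairs and 0 elsewhere. A test of whether the genes of a component change unequally, over 3711 components, also called 0 of the 30 in each pair. It counted 2 at an unadjusted p under 0.05 between sustained and control (3.96% of components tested), 1 between recovery and control (2.94%), 1 between recovery and acute (3.21%), and 0 between acute and control (4.15%), recovery and sustained (1.21%) and sustained and acute (3.8%). The component with the smallest p of that test was TRINITY_DN186701_c0 between sustained and control (adjusted p = 0.937 by edgeR), where the differences of its members ran from -2.88 for g6 to 2.87 for g22 (log2).

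The fitted differences of members leaned to one side in some pairs. Between acute and control, 96 of 259 members were higher, with a median log2 difference of -0.11 against -0.01 over all genes of the same kind. Between sustained and control 91 were higher, with a median of -0.15 (-0.01 over all), and between recovery and control 122, with a median of -0.04 (0.02 over all). These 3 pairs share the control libraries, and without control replicate 2 the numbers were 122, 106 and 133, with medians of -0.02, -0.07 and 0.00. The pairs without controls gave 157 members higher in recovery than in sustained libraries (median 0.09, against 0.02 over all), 113 higher in sustained than in acute (-0.07, against 0.00) and 138 higher in recovery than in acute (0.02, against 0.01). Leaving out 1 library changed these leans unequally. The share of members higher stayed at 32.8% to 40.9% between sustained and control, and at 37.1% to 47.1% between acute and control. Recovery replicate 1 mattered most: without it the share of members higher in recovery than in sustained libraries was 49.4% in place of 60.6%, that higher in recovery than in acute was 44.4% in place of 53.3%, and that higher in recovery than in control was 34.4% in place of 47.1%. Without acute replicate 1, 45.2% were higher in recovery than in acute libraries, and without sustained replicate 2, 49.4% were higher in sustained than in acute libraries in place of 43.6%. Other omissions took the share higher in sustained than in acute libraries down to 34.4%. They took the share higher in recovery than in sustained libraries up to 68.3%.

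Members whose 2 groups did not overlap were few. Against acute and control libraries, the shares lower in sustained libraries were somewhat above those of all genes of the same kind. The shares higher were smaller than over all such genes. Smaller shares higher were also found between acute and control, recovery and control, and recovery and acute libraries. Between sustained and acute, 23 members (8.88%) were lower in every sustained library, against 7.25% of all genes of the same kind, and 7 (2.70%) were higher, against 7.91%. Between sustained and control, 19 were lower (7.34%, against 5.13%) and 2 higher (0.772%, against 4.91%). Between acute and control, 12 were lower (4.63%, against 5.13%) and 5 higher (1.93%, against 4.47%). Between recovery and sustained, 12 were higher (4.63%, against 3.52%) and 9 lower (3.47%, against 3.11%). Between recovery and control there were 6 lower (2.32%, against 3.01%) and 4 higher (1.54%, against 2.88%). Between recovery and acute there were 6 lower (2.32%, against 3.84%) and 2 higher (0.772%, against 4.05%). With 3 libraries per group these counts carry no test.

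Members of one component lay on the same side of 0 somewhat more often than members of different components. Between sustained and acute, 60.2% of the 1005 pairs within components had the same sign, against 50.3% of pairs between components. The shares were 58.1% against 49.8% between recovery and acute, 55.9% against 52.0% between recovery and sustained, 56.3% against 53.1% between acute and control, 58.3% against 54.1% between sustained and control, and 50.15% against 49.97% between recovery and control. Without control replicate 2 the last 3 were 57.0% against 49.8%, 52.3% against 51.4% and 53.9% against 49.7%. Pairs that share a member or reads are not independent, so these shares are a description. In most components the members were spread on both sides of 0. A whole component on one side was found in 0 to 2 components per pair.

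**Figure D4:**
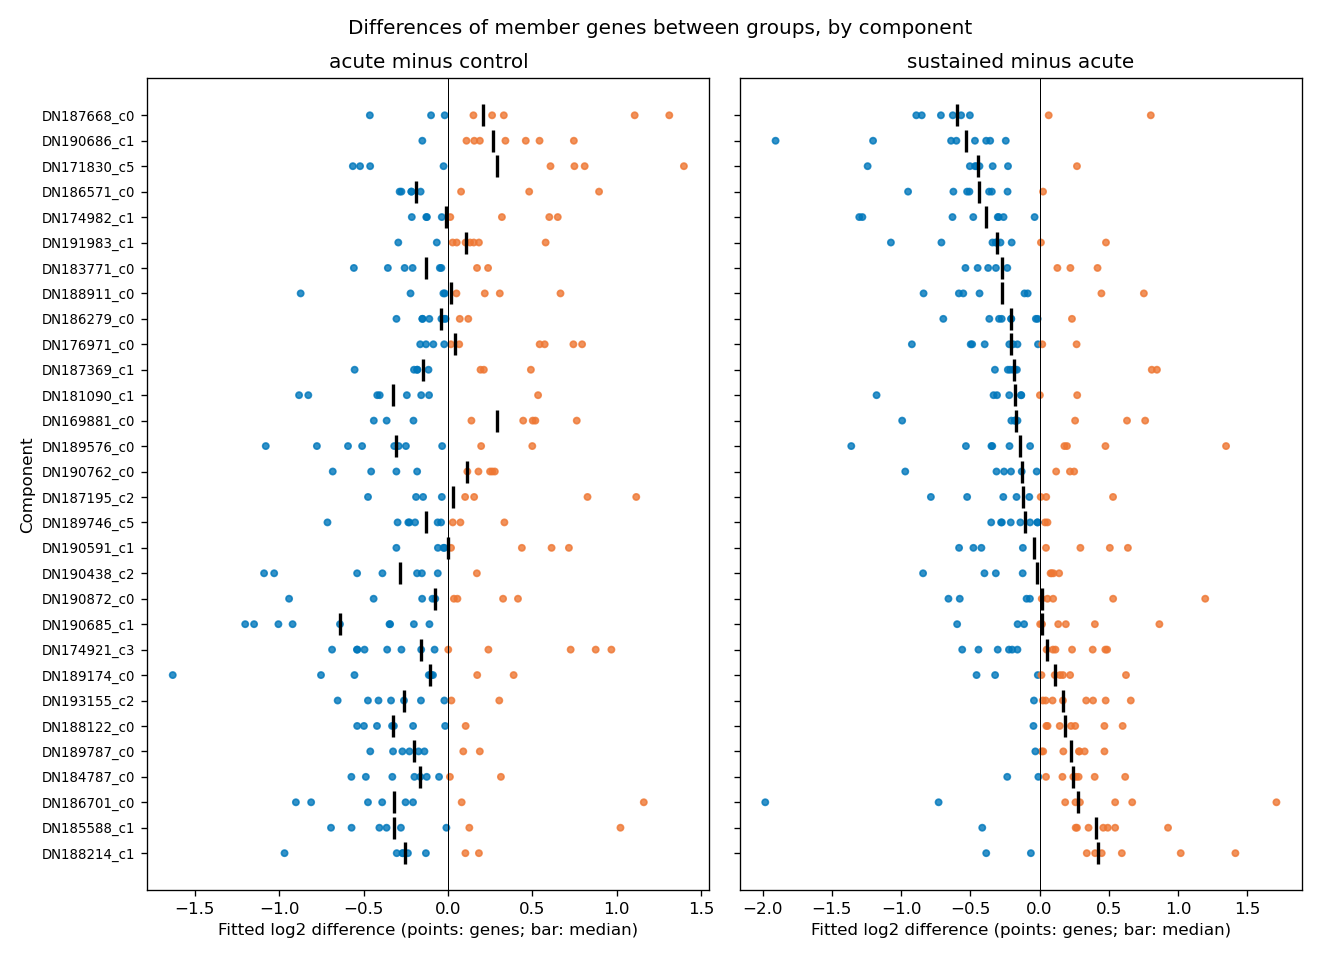
Fitted log2 difference of each member (points, blue below and orange above 0) and the median of its component (bar), between acute and control (left) and between sustained and acute libraries (right), in the order of the medians on the right; names are without the prefix TRINITY_. All 8 members of DN190686_c1 lie below 0 on the right and 7 of 8 above 0 on the left.

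Component TRINITY_DN190686_c1 had all its 8 members on one side of 0 in 3 pairs, more than any other component. All 3 pairs contain the sustained libraries, so they are not independent of each other. Its members summed to 203, 226 and 221 CPM in the control libraries, 253, 277 and 233 in the acute, 212, 164 and 186 in the sustained, and 240, 222 and 184 in the recovery. Every acute library was above every control and every sustained library, and the recovery libraries overlapped all the other groups. The acute mean was 254.3 ± 22.3 CPM and the sustained mean 187.4 ± 23.9 CPM (SD, n = 3), a log2 difference of -0.44 (SE 0.14). It was not called (adjusted p = 0.853 by edgeR's quasi-likelihood test). All 8 members were lower in sustained than in acute libraries, with a median of -0.53, and 4 of them, g11, g12, g2 and g7, did not overlap between the groups. All 8 were lower in sustained than in control libraries (median -0.35) and higher in recovery than in sustained libraries (median 0.20). Without control replicate 2, 7 of 8 were lower in sustained than in control libraries (median -0.26).

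Within it, TRINITY_DN190686_c1_g12_i1 had 43.6, 34.2 and 47.1 CPM in the control libraries, 63.5, 61.8 and 46.6 in the acute, 44.2, 30.6 and 38.5 in the sustained, and 47.8, 43.1 and 40.2 in the recovery. Among members it had the smallest p for a lower level in sustained than in acute libraries (log2 -0.60, SE 0.19, adjusted p = 0.938 by edgeR) and for a higher level in acute than in control libraries (log2 0.46, SE 0.19, adjusted p = 0.987), a choice that favours large values. Acute replicates 1 and 2 stood above all other libraries and acute replicate 3 lay within the control range.

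The largest component, TRINITY_DN174921_c3, had its members on both sides of 0 in every pair. Its 13 members summed to 343, 471 and 413 CPM in the control libraries, 277, 310 and 327 in the acute, 382, 252 and 275 in the sustained, and 390, 274 and 302 in the recovery. Every acute library was below every control library, while the sustained and recovery libraries overlapped the controls. The sum was not called in either pair (acute against control log2 -0.43, SE 0.19, adjusted p = 0.959, and sustained against control adjusted p = 0.988, by edgeR). Member TRINITY_DN174921_c3_g23_i1 had 59.5, 128 and 76.0 CPM in the control libraries, 54.3, 62.2 and 64.8 in the acute, 62.5, 49.95 and 45.6 in the sustained, and 62.7, 56.6 and 50.2 in the recovery. It had the smallest p among members for a lower level in sustained than in control libraries (log2 -0.73, SE 0.23, adjusted p = 0.979 by edgeR), and its highest value was again in control replicate 2. In that library 6 of the 13 members were at least 2-fold below the others, such as g25 with 0.324 CPM against 1.96 to 8.41, and only g23 was 2-fold above. With all libraries, 5, 6 and 6 of the 13 members were higher in acute, sustained and recovery than in control libraries. Without control replicate 2 these numbers were 3, 4 and 2, so that 10, 9 and 11 members were lower. The median correlation of its members was 0.303, and 0.326 without that library.

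**Figure D5:**
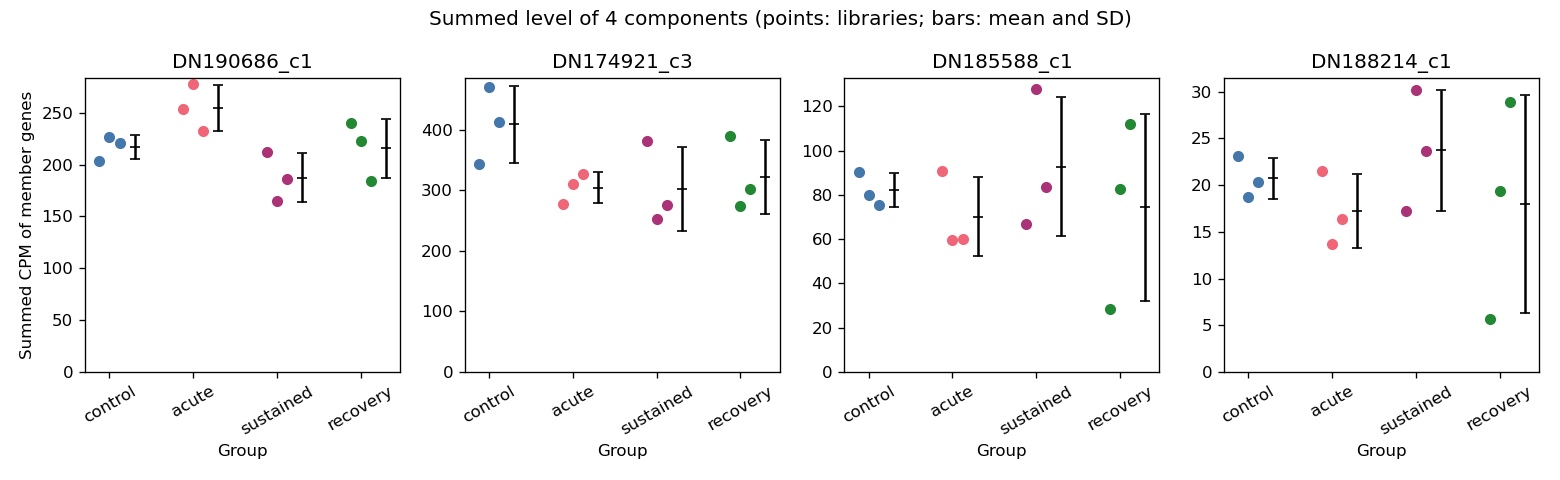
Summed CPM of the members of 4 components (names without the prefix TRINITY_) in each library (points), with the mean and SD of each group of 3 (bars), on axes that start at 0. The acute libraries of DN190686_c1, at 233 to 277 CPM, lie above the sustained ones at 164 to 212, and recovery replicate 1 is the lowest point of DN185588_c1 and DN188214_c1.

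In TRINITY_DN190685_c1, all 9 members were lower in acute than in control libraries (median log2 -0.64) and in sustained than in control libraries (-0.45). Its sum was 247, 428 and 310 CPM in the control libraries and 223 to 339 in the other 9. Without control replicate 2, 3 of 9 members were higher in acute than in control libraries and 5 of 9 in sustained than in control libraries, with medians of -0.09 and 0.07. The common direction of this component thus rested on 1 library. Other components with all members on one side were TRINITY_DN174982_c1, lower in sustained than in acute libraries (8 members, median -0.39), TRINITY_DN190872_c0, higher in recovery than in sustained libraries (9 members, 0.11), TRINITY_DN189787_c0, higher in recovery than in acute libraries (8 members, 0.24), and TRINITY_DN171830_c5, lower in recovery than in acute libraries (8 members, -0.36). The sum of the last was 1034 ± 104 CPM in the acute and 816.8 ± 138.6 CPM in the recovery libraries (SD, n = 3), a log2 difference of -0.34 (SE 0.16, adjusted p = 1.00 by edgeR).

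Movement apart within a component, judged by groups that did not overlap in opposite directions, was found in 0 to 2 components per pair, 6 cases in all. Over all genes of the same kind, 2.88% to 7.91% did not overlap in a given direction and pair. The share of other components with such cases is not given here, so the 6 cases are a description. In TRINITY_DN183771_c0, member g16 had 20.1, 19.6 and 18.8 CPM in the sustained and 11.98, 14.4 and 17.4 in the acute libraries, and member g13 had 43.9, 33.5 and 43.5 in the sustained and 53.5, 63.2 and 48.3 in the acute. In TRINITY_DN188911_c0, member g18 had 6.12, 6.79 and 7.26 CPM in the sustained libraries, 1.95, 5.93 and 4.12 in the acute and 4.98, 3.73 and 3.46 in the control, while members g9 and g11 were lower in every sustained than in every acute library. Member g18 was the member with the smallest p for a higher level in sustained than in control libraries (log2 0.73, SE 0.33, adjusted p = 0.979 by edgeR). In TRINITY_DN187369_c1, member g7 had 2.09, 1.64 and 1.08 CPM in the sustained and 0.757, 0.891 and 0.739 in the control libraries, and members g8 and g24 were lower in every sustained library than in the controls. Between recovery and sustained libraries, TRINITY_DN171830_c5 had g4 higher (195 to 225 against 160 to 181 CPM) and g14 lower, and TRINITY_DN187195_c2 had g6 higher (3.38 to 3.72 against 3.02 to 3.18 CPM) and g14 lower. The unequal change of these components did not pass the test in those pairs.

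TRINITY_DN189576_c0, with 10 members, was the sixth case. Its members summed to 163, 199 and 194 CPM in the control libraries, 141, 179 and 197 in the acute, 201, 139.7 and 175 in the sustained, and 237, 184 and 171 in the recovery, with overlap between all groups. Of its members, 9 of 10 were higher in recovery than in acute libraries (median log2 0.24), and 2 of 10 were higher in acute than in control libraries. Member g12 had 1.43, 1.33 and 0.972 CPM in the recovery and 0.648, 0.684 and 0.920 in the acute libraries. Member g20 went the other way, with 1.33, 1.499 and 1.26 in the recovery and 1.68, 1.87 and 1.80 in the acute. The median correlation of its members was 0.163, and 0.302 without control replicate 2.

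By summed counts, the smallest p in the other pairs belonged to TRINITY_DN186701_c0, TRINITY_DN184787_c0 and TRINITY_DN187668_c0, and none passed the test. TRINITY_DN186701_c0 summed to 48.4, 45.4 and 47.1 CPM in the control and 33.2, 35.9 and 38.4 in the acute libraries, which did not overlap (log2 -0.39, SE 0.15, adjusted p = 0.959 by edgeR), although its members g22 and g6 differed between those groups in opposite directions. TRINITY_DN184787_c0 summed to 42.0, 43.8 and 45.7 CPM in the control and 35.2, 30.2 and 43.6 in the recovery libraries, which overlapped (log2 -0.27, SE 0.14, adjusted p = 0.999 by edgeR). TRINITY_DN187668_c0 summed to 12.7, 11.2 and 13.4 CPM in the sustained and 21.4, 17.3 and 13.4 in the recovery libraries, which overlapped (log2 0.48, SE 0.23, adjusted p = 1.00 by edgeR). Of its members, 7 of 8 were higher in recovery.

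By unequal change, the smallest p between acute and control belonged to TRINITY_DN190438_c2, where g19 had 39.3, 40.3 and 39.9 CPM in the control and 45.6, 47.7 and 41.2 in the acute libraries. The other 7 members were lower in acute libraries, down to -1.09 (log2) for g8. Without control replicate 2, where g8 had 3.89 CPM against 1.43 and 1.59 in the other controls, 4 of 8 members were higher. In the other pairs it belonged to TRINITY_DN188122_c0 (recovery against control, members from -0.82 to 0.55), TRINITY_DN190762_c0 (recovery against sustained, -0.13 to 1.87), TRINITY_DN188911_c0 (sustained against acute, -0.84 to 0.75) and TRINITY_DN193155_c2 (recovery against acute, -0.48 to 0.82). Their adjusted p lay between 0.997 and 1.00 by edgeR's test of unequal change.

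Other members were named for the smallest p in a pair and direction. TRINITY_DN189576_c0_g11_i1 had 1.53, 0.471 and 0.972 CPM in the recovery and 0.437, 0.252 and 0.179 in the sustained libraries (log2 1.72, SE 0.54, adjusted p = 1.00 by edgeR). TRINITY_DN191983_c1_g23_i1 had 0.345, 0.428 and 0.324 CPM in the recovery and 2.59, 0.638 and 0.745 in the acute libraries (log2 -1.85, SE 0.55, adjusted p = 1.00 by edgeR), with acute replicate 1 far above the rest. Neither gene overlapped between these groups. TRINITY_DN181090_c1_g17_i3 had 10.7, 10.6 and 5.56 CPM in the control and 3.39, 5.29 and 5.87 in the acute libraries, which overlapped (log2 -0.88, SE 0.31, adjusted p = 0.987 by edgeR). The picks for the other directions were TRINITY_DN190872_c0_g13_i1 (higher in recovery than in control, log2 1.30), TRINITY_DN184787_c0_g15_i1 (higher in sustained than in acute, 0.62), TRINITY_DN193155_c2_g14_i1 (higher in recovery than in acute, 0.82) and TRINITY_DN193155_c2_g5_i1 (lower in recovery than in sustained, -0.86), with adjusted p from 0.938 to 1.00 by edgeR. Over all members the level ranged 2.74-fold between the lowest and highest library in the median, against 2.21-fold for all genes of the same kind (on CPM plus 0.5). A range above 8-fold was found in 31 members (11.97%, against 4.58%), and a count of 0 in at least 1 library in 16 (6.18%, against 2.28%). Of these 16, 13 were at 0 in control replicate 2, the library with the lowest total, where 1.68% of all such genes were at 0. How many of the 31 owed their range to that library was not counted.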

How the data were processed

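Poly(A) RNA of whole animals was sequenced from 12 libraries with a strand-specific kit, per the labels' protocols. What the authors deposited is one table of raw, whole-number read counts by Trinity transcript. According to the submitters' processing notes, the tools were HTSeq 0.6.1, TopHat2 2.1.1, edgeR and Trim Galore 0.4.1, with no role or order stated. How the assembly was built and whether counting used strand is not given in the sources used here.

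Counts were fitted with edgeR 4.0.16 in R 4.3.3 (TMM, low-count filter at a minimum count of 10 and a minimum total of 15, robust quasi-likelihood, 4 groups in one fit), leaving 40943 rows. TMM factors ran from 0.634 to 1.34. Counts summed by component, and edgeR's test of unequal change among the genes of a component, used the same design. Benjamini-Hochberg adjustment ran over all features of a test. Each SE was obtained from the log2 difference and its F statistic. Tests were checked on simulated data with planted changes larger than most differences described here, so recovery of smaller changes was not checked. Correlations and deviations used log2(TMM CPM + 0.5). Alternatives included DESeq2 1.42.0, other scaling and filters, and leaving out each library. Python 3.11.15, pandas 2.3.3, NumPy 2.4.6, SciPy 1.17.1 and matplotlib 3.10.9 were used.

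Components described singly were the 4 with most members (3 tie for the second place), the 3 with the highest and the 3 with the lowest correlation, and those with the smallest p per pair by sum or by unequal change, beside the members of smallest p per pair and direction. Components named for control replicate 2, for recovery replicate 1 or for members all on one side or on opposite sides were picked after their values were seen. The members and lists were chosen with earlier results of these data known. Floors cover counting error only.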

Additional observations from a re-analysis of the deposited data

How the results depend on the processing

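All 320 counts of called members, sums and unequal components stayed at 0 under every alternative run, leaving out each library in turn included (0 to 0), so they show only that no setting gave a call. The median correlation within components, 0.238, lay between 0.196 and 0.264 when 1 library was left out, was 0.245 by Spearman and 0.299 for members of at least 5 CPM, and was 0.302 on deviations from group means without control replicate 2, a setting chosen after seeing the data. The number of members far below the others in control replicate 2 was 36 at 2-fold in place of 23 at 4-fold, a limit also added after seeing the data. Of 84 counts of direction under other settings, 0 moved by more than 1.5 times, but leaving out 1 library took the share of members higher to 37.1% to 47.1% (acute against control), 32.8% to 40.9% (sustained against control), 34.4% to 51.4% (recovery against control), 49.4% to 68.3% (recovery against sustained), 34.4% to 49.4% (sustained against acute) and 44.4% to 59.1% (recovery against acute). No paired analysis was possible because the labels number no replicates, and numbers given here by accession order mark no shared vessel. Depth limits members near 1 CPM, where 1 library of 11582848 counts holds few reads per gene.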

Other observations

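The 30 components also held 39 rows outside the 259 members, 26 of genes with several rows and 13 of genes below 1 CPM. All 39 were tested, and edgeR's quasi-likelihood test called 0 in any of the 6 pairs, with a lowest adjusted p of 0.938. At an unadjusted p under 0.05 there were 0 between acute and control, 2 between sustained and control, 1 between recovery and control, 1 between recovery and sustained, 0 between sustained and acute and 0 between recovery and acute. One gene below the limit, TRINITY_DN187668_c0_g28_i1, was among these in 2 pairs, with log2 differences of 1.66 between sustained and control and 1.85 between recovery and control (adjusted p = 0.979 and 1.00 by edgeR).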
